A study of Canis lupus familiaris with 12 samples.

Results

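Chemokines are small secreted or membrane-bound proteins that guide leukocytes through G protein-coupled receptors. Inflammatory chemokines are induced by cytokines and microbial or damage signals and draw monocytes, neutrophils, effector lymphocytes and natural killer cells, whereas tissue chemokines of skin, gut and other barriers direct lymphocytes to those sites. In a draining lymph node (DLN) they are made by macrophages, dendritic cells, endothelium and stroma, and their receptors mark the leukocytes that enter or pass through. The genes described here are the 39 inflammatory and tissue chemokines and receptors, 25 ligands and 14 receptors, among the 780 endogenous genes of a canine immuno-oncology panel. They were chosen by gene name, as every gene named as a CC, CXC, CX3C or XC ligand or receptor except 7 homeostatic genes of the lymphoid tissue itself (CXCL12, CXCL13, CCL19, CCL21, CXCR4, CXCR5 and CCR7). A chemokine under another name, such as PPBP, was therefore not among them.

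RNA came from lymph nodes of 6 pet dogs with sinonasal cancer, whose tumors all received stereotactic body radiation therapy (SBRT) as 3 fractions of 10 Gy. The irradiated nodes were those of 3 dogs aged 7 to 14 years in which elective nodal irradiation (ENI) covered the submandibular and retropharyngeal nodes on both sides, and the non-irradiated nodes those of 3 dogs aged 3 to 9 years treated to the tumor only, so that age and treatment cannot be told apart. Mandibular nodes of the tumor side were taken by surgery 2 weeks after SBRT, there was no node from before treatment, and tumors were carcinoma, sarcoma or unclassified malignant. Each dog gave 2 samples, 6 per group, and the labels do not say how these differ; they name lymph node as the tissue, while the extraction text speaks of tumor.

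Barcoded probes were counted without amplification (NanoString nCounter), and the unit is a normalized count, scaled by the authors to housekeeping genes. The values available were the authors' mean of each group, which is a geometric mean, and the authors' SD over its samples, so single samples cannot be shown and their depth is unknown. Probes differ in efficiency, so counts are compared between groups and not between genes, and sums over genes lean on the probes with the highest counts. All 12 lymphocyte markers checked were measured, and their authors' means summed to 15876 (irradiated) and 17441 (non-irradiated) normalized counts, among them the B cell gene MS4A1 (2122 and 1443) and the T cell gene CD3E (2627 and 4393). Over the 780 genes the authors' means summed to 886308 and 826258 normalized counts, and the lowest group value of any probe was 7.55. Whether the lowest genes were above background cannot be told, since the background setting is not named. In bulk RNA, fewer cells of a type and less RNA per cell cannot be told apart.

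To find which chemokine genes differed with nodal irradiation, log2 ratios of irradiated over non-irradiated nodes were tested with limma's moderated test across all 780 genes. The receptor CCR9 was 1.90-fold lower and the ligand CXCL14 3.22-fold higher in irradiated than in non-irradiated nodes. The other 37 members did not pass an adjusted p of 0.05. The largest ratios among these were those of CCL20, higher in irradiated nodes, and of CCL24, lower. With 2 of 39 members past the threshold, 1 in each direction, the chemokine genes were called about as often as the panel, where 3.59% of genes passed (28 genes), 1.67% higher and 1.92% lower. At an unadjusted p under 0.05 there were 7 members, 3 higher and 4 lower, or 17.9%, beside 21.9% of the panel (8.46% higher and 13.5% lower). In these p-values the 2 samples from each dog count as independent, and they measure the spread between samples, which may be technical. Values per dog were not used here, so the p-values are too small if the samples of a dog resemble each other. The extreme assumption that they were identical was made by widening limma's standard errors 1.58-fold, with 4 degrees of freedom. In the limma comparison so widened, 0 of 780 genes passed and 17, CCR9 the single member among them, had an unadjusted p under 0.05. With variances then moderated anew by limma, an alternative added after the data were seen, 0 genes passed and 35 had an unadjusted p under 0.05. The members among these were CXCL14, CCR9 and CCL24, with CXCL14 ranked ahead of CCR9.

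**Figure D1:**
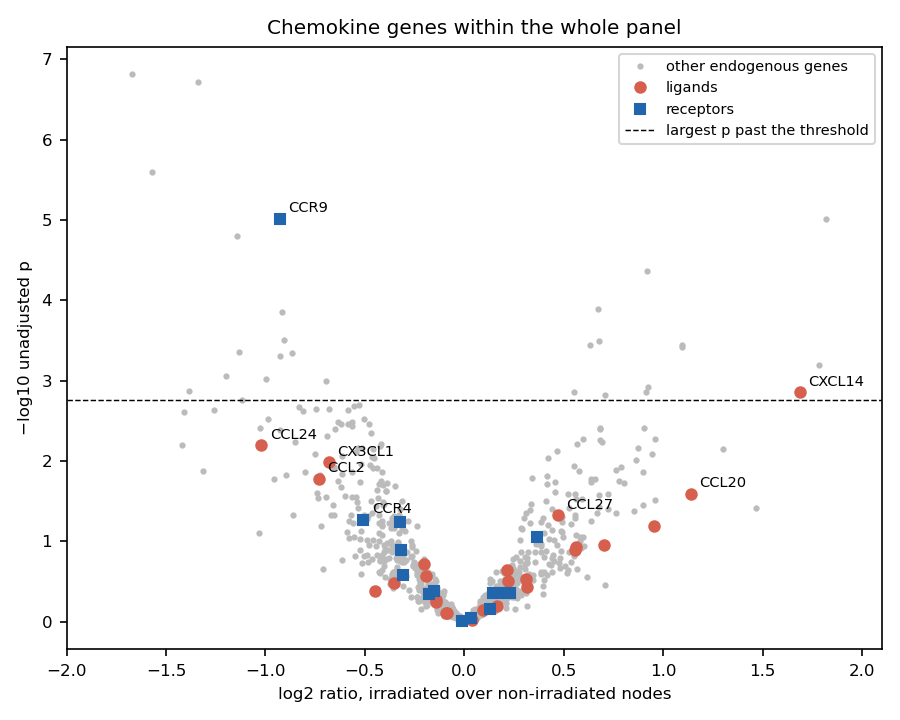
Ratio of irradiated to non-irradiated nodes on a log2 scale (horizontal) against −log10 of the unadjusted p (vertical) for 780 endogenous genes, with the 25 ligands as circles and the 14 receptors as squares; the dashed line is the largest p that passed. CCR9 lies far above the line on the left, CXCL14 just above it on the right, and the other 37 members below it.

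CCR9 guides T cells to the small intestine, where epithelium makes its ligand CCL25, and is also carried by thymocytes and plasmacytoid dendritic cells. Its probe reads the transcript NM_001284476.1 from base 660. The authors' mean was 32.7 normalized counts (SD 2.93) in irradiated nodes and 62.2 (SD 8.37) in non-irradiated nodes. Both lie below the panel's median level of 224.6 normalized counts, and their distance from background is unknown. A geometric mean and an SD of 6 values that cannot be negative set limits for the unseen samples. No irradiated sample can lie above 39.43 and no non-irradiated sample below 43.43 normalized counts, whichever divisor the SD used. The groups therefore did not overlap. Only 4 of the 780 genes (0.513%) had groups that could be shown not to overlap in this way, and CCR9 was the only one among the 39 members, next to CXCL12, PDGFRA and BRCA2. The log2 ratio of CCR9 was -0.93 ± 0.14 (SE; 95% interval -1.22 to -0.63; adjusted p = 0.00151, limma). Over dogs, complete separation of 3 from 3 gives an exact permutation p of 0.1 (two-sided), the smallest that the 20 possible splits allow. CCL25 was near the low end of the panel at 14.0 normalized counts (SD 6.10) in irradiated and 12.5 (SD 7.58) in non-irradiated nodes, with groups that must overlap and a log2 ratio of 0.17 (95% interval -0.55 to 0.88). Among 12 lymphocyte markers measured beside it, B and T cell genes pooled, 6 were higher and 6 lower, and 0 passed after adjustment. Their log2 ratios ran from -1.42 to 0.68. At an unadjusted p under 0.05 (limma) 3 were lower and 1 higher (33.3%, beside 21.9% of the panel). The T cell gene CD8A was at 201 (irradiated) and 534 (non-irradiated) normalized counts and CD4 at 898 and 866, and CD3E, given above, was also lower. The part of lymphocytes in the CCR9 result was not tested.

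CXCL14 is a chemokine of epithelia and fibroblasts that attracts monocytes and precursors of dendritic cells, and its receptor is not settled. Its authors' mean was 192 normalized counts (SD 55.2) in irradiated nodes and 59.5 (SD 73.8) in non-irradiated nodes. The SD above the mean in non-irradiated nodes requires at least 1 sample at 134.7 normalized counts or more there, while every irradiated sample lay at 68.0 or more, so whether the groups overlapped is undecided. The log2 ratio was 1.69 ± 0.43 (SE; 95% interval 0.78 to 2.60; adjusted p = 0.0419, limma), close to the threshold. The call ended with a separate variance for each group and no moderation (adjusted p = 0.125), with SDs taken to the log scale by the delta method (0.196) and with Benjamini-Yekutieli adjustment (0.303); over all 10 alternatives with adjustment its adjusted p ranged from 0.0324 to 0.997. Of 8 epithelial genes measured, 5 were higher and 3 lower in irradiated nodes, with summed levels of 670 and 635 normalized counts. The keratin KRT18 was higher (1.09 ± 0.23 SE on the log2 scale, adjusted p = 0.0215, limma), whereas EPCAM had a log2 ratio of 0.42 and E-cadherin, CDH1, of -0.48. Among 6 fibroblast genes, of which 2 were higher and 4 lower, the median log2 ratio was -0.25. The growth factor receptors PDGFRA and PDGFRB were lower by 1.67 and 0.92 on the log2 scale, whereas the collagens COL1A1 (0.24) and COL3A1 (0.03) were on the other side of 0 without passing. The part of these cells in the CXCL14 result was not tested.

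Receptors and ligands were next set side by side. Of the 25 ligands 14 were higher and 11 lower in irradiated nodes, with a median log2 ratio of 0.10. Of the 14 receptors 6 were higher and 8 lower, and their median was -0.08. All 39 members together had 20 higher and 19 lower (51.3% higher, beside 45.1% of the panel), and medians of 0.03 for the members and -0.05 for the panel. A change of over 1 log2 unit in either direction separated the group means of 3 members, all ligands, beside 2.95% of the panel. Of 30 pairs with both genes measured, from a fixed list of textbook ligand-receptor pairs, 18 had ratios of the same sign. Many pairs share a gene, and no expected share was computed. The CCR3 pairs with CCL24, CCL26 and CCL5 are among the 18 at a CCR3 log2 ratio of -0.01, which turned above 0 on centering.

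**Figure D2:**
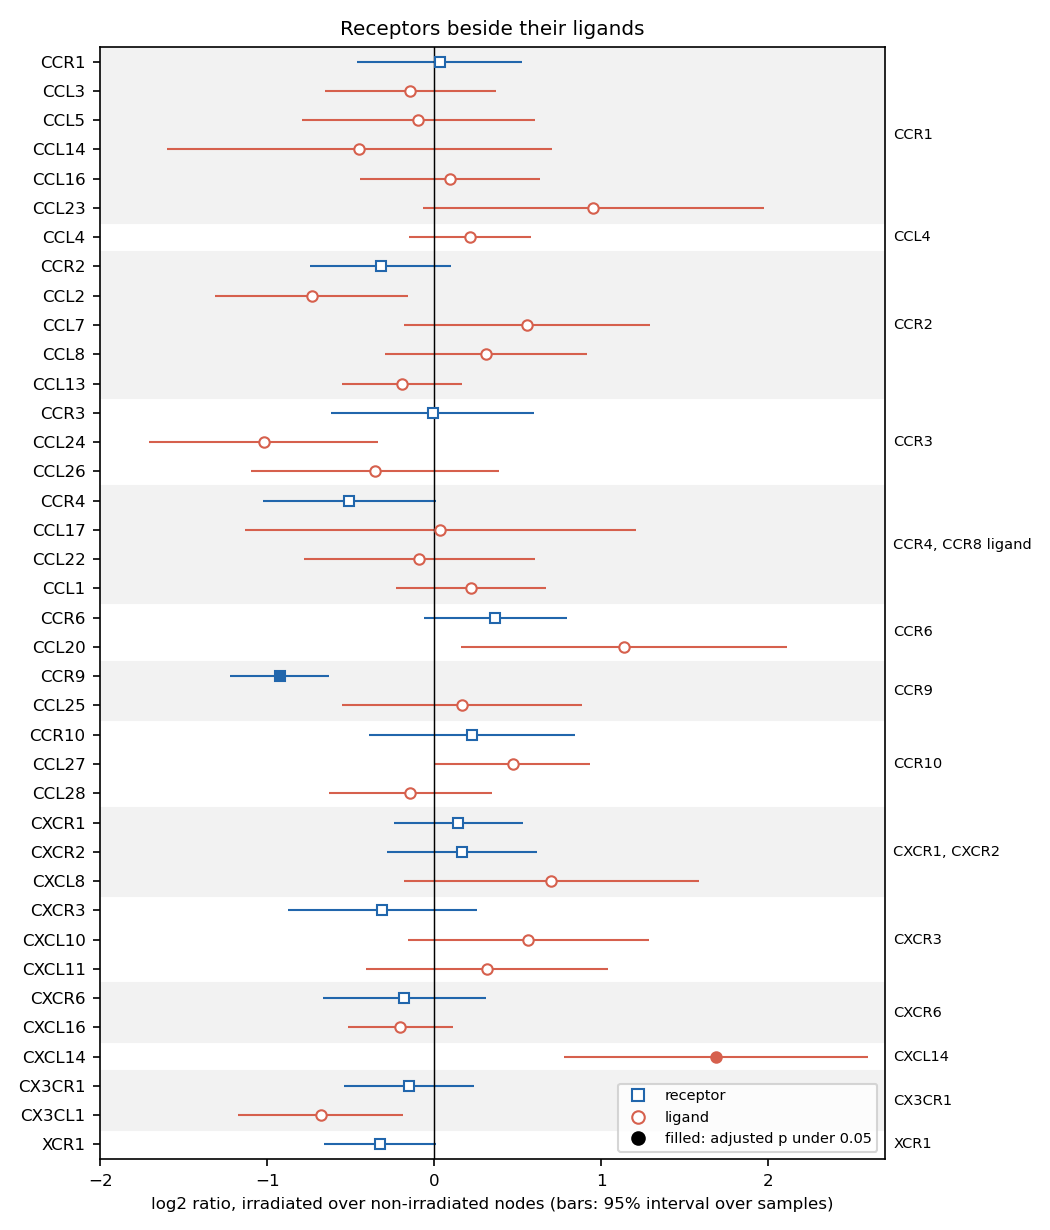
Ratio of irradiated to non-irradiated nodes on a log2 scale. Receptors (squares) stand above the ligands that bind them (circles), in blocks named at the right. CCL1, a ligand of CCR8, is drawn at the end of the CCR4 block, and CCL4 and CXCL14 are listed without a receptor. Bars are 95% intervals over samples and filled symbols passed the adjusted threshold. Most intervals hold 0, and the filled symbols are CCR9 at -0.93 and CXCL14 at 1.69.

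CCL20, which epithelium and follicle-associated cells make to draw B cells, dendritic cells and T helper 17 cells through CCR6, had authors' means of 1925 normalized counts (SD 811) in irradiated and 874 (SD 1157) in non-irradiated nodes. At least 1 non-irradiated sample must have held 2113 normalized counts or more, above the irradiated mean, so the groups overlapped. Its log2 ratio was 1.14 ± 0.46 (SE; 95% interval 0.16 to 2.12), with an adjusted p of 0.161. CCR6 itself, carried by most B cells, had 408 normalized counts (SD 40.5) in irradiated nodes and 316 (SD 108) in non-irradiated nodes, a log2 ratio of 0.37 (95% interval -0.06 to 0.79). Neither gene of this exclusive pair passed the test.

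The ligands of CCR2, the receptor that brings monocytes out of the marrow and into tissue, lay on both sides of 0, and none passed. CCL2, the main monocyte chemokine, had 522 normalized counts (SD 121) in irradiated and 868 (SD 443) in non-irradiated nodes (log2 ratio -0.73 ± 0.27 SE, 95% interval -1.31 to -0.15, adjusted p = 0.127). CCL13 was at 129 and 147 normalized counts (log2 ratio -0.19). The related CCL7 (30.4 and 20.7) and CCL8 (43.6 and 35.2) lay on the other side of 0, at log2 ratios of 0.56 (95% interval -0.18 to 1.29) and 0.31 (95% interval -0.30 to 0.91). CCR2 was at 136 normalized counts (SD 26.0) in irradiated and 169 (SD 47.5) in non-irradiated nodes, a log2 ratio of -0.32. Beside these, 5 of 10 macrophage and monocyte markers were higher and 5 lower, with summed levels of 4537 and 6224 normalized counts, with log2 ratios from -1.03 for the scavenger receptor MARCO (1109 and 2272) to 0.52 for the Fc receptor FCGR1A (92.0 and 64.2). The growth factor receptor CSF1R was at 843 and 1403 and the costimulatory ligand CD80 at 1073 and 791; none of the 10 passed, and the part of these cells was not tested.

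CCR1, a receptor of monocytes, macrophages and activated T cells, differed little between group means, at 281 and 274 normalized counts (log2 ratio 0.03, 95% interval -0.46 to 0.53), with groups that must overlap. The related ligands CCL3, CCL4 and CCL5, made by activated T cells, natural killer cells and macrophages, were likewise close to 0, with log2 ratios of -0.14 for CCL3, 0.22 for CCL4 and -0.09 for CCL5. CCL5 had 622 normalized counts (SD 345) in irradiated and 664 (SD 301) in non-irradiated nodes. The 95% interval of CCL5 reached from -0.79 to 0.61, so changes within these limits were not excluded. The CCR1 ligand CCL23, a chemokine of myeloid cells, had a larger ratio (474 with SD 524 and 244 with SD 181 normalized counts, log2 ratio 0.95, 95% interval -0.07 to 1.98). CCL16, known as a liver chemokine, was at 24.4 and 22.9 normalized counts.

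CCL14, a ligand of CCR1 found at high levels in human plasma, stood apart by its spread. Its authors' mean was 371 normalized counts with an SD of 803 in irradiated nodes, and 507 with an SD of 197 in non-irradiated nodes. The SD requires at least 1 irradiated sample at 1465.5 normalized counts or more, above the ceiling of 1238 that the values of the non-irradiated samples allow. The group mean is nevertheless lower in irradiated nodes (log2 ratio -0.45, 95% interval -1.60 to 0.71), so at least 1 irradiated sample lay at or below 371 while at least 1 non-irradiated sample lay at 587 or more, and the groups overlapped.

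The eosinophil attractants CCL24 and CCL26, which act through CCR3, were both lower in irradiated nodes without passing the test. CCL24 had 30.1 normalized counts (SD 14.5) in irradiated and 61.0 (SD 30.0) in non-irradiated nodes, a log2 ratio of -1.02 ± 0.32 (SE; 95% interval -1.71 to -0.34; adjusted p = 0.0797), the smallest adjusted p after CCR9 and CXCL14. CCL26 was at 11.8 and 15.1 normalized counts, a log2 ratio of -0.35 (95% interval -1.10 to 0.39). CCR3 was at 31.7 and 31.9, a log2 ratio of -0.01, and turned above 0 when ratios were centered on the housekeeping (0.02) or the endogenous median (0.04). CCL24, CCL26 and CCR3 were at 61.0 normalized counts or less in both groups, whereas CCL5, which also binds CCR3, was at 622 and 664.

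CCR4 marks T helper 2, regulatory and skin-homing T cells and binds CCL17 and CCL22, chemokines of dendritic cells. It had 89.8 normalized counts (SD 42.2) in irradiated nodes and 128 (SD 15.0) in non-irradiated nodes, a log2 ratio of -0.51 (95% interval -1.02 to 0.01, adjusted p = 0.236). CCL17 had almost the same mean and the same wide spread in both groups, 549 (SD 648) in irradiated and 536 (SD 640) in non-irradiated nodes, so that at least 1 irradiated sample must have held 1183 and at least 1 non-irradiated sample 1169 normalized counts or more. CCL22 was at 47.9 and 50.9 normalized counts. CCL1, the ligand of CCR8, was at 38.6 (SD 13.7) and 33.1 (SD 5.02) normalized counts, and CCR8 was not analysed here.

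Interferon-induced chemokines were higher in irradiated nodes while their receptor was lower, and none passed. CXCL10 had 1898 normalized counts (SD 938) in irradiated and 1284 (SD 720) in non-irradiated nodes (log2 ratio 0.56, 95% interval -0.16 to 1.28, adjusted p = 0.362). CXCL11 had 138 (SD 24.4) and 111 (SD 91.9), with groups that must overlap and a log2 ratio of 0.32. CXCR3, carried by T helper 1, CD8 and natural killer cells, had 115 (SD 43.2) and 143 (SD 52.5), a log2 ratio of -0.31 (95% interval -0.88 to 0.26). Among 11 cytotoxic cell markers 4 were higher and 7 lower, with summed levels of 2091 and 2175 normalized counts, and a median log2 ratio of -0.10. They ran from -0.72 for the transcription factor EOMES (175 and 289 normalized counts) to 0.92 for the granzyme GZMB (151 and 79.8). GZMB alone passed (adjusted p = 0.0419, limma), or 9.09% of the list beside 3.59% of the panel. At an unadjusted p under 0.05 (limma) 2 were higher and 2 lower (36.4%, beside 21.9% of the panel). Of 16 measured genes that induce or relay inflammatory chemokine expression, 8 were higher and 8 lower and 0 passed the limma comparison. At an unadjusted p under 0.05 (limma) there were 3 (18.8%, beside 21.9% of the panel). Interferon gamma, IFNG, was at 48.5 and 40.3 normalized counts.

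The neutrophil axis held CXCL8, the main neutrophil chemokine, at 325 normalized counts (SD 211) in irradiated and 200 (SD 157) in non-irradiated nodes (log2 ratio 0.70, 95% interval -0.18 to 1.59). Its receptors CXCR1 (52.4 and 47.3 normalized counts) and CXCR2 (40.2 and 35.8) had log2 ratios of 0.15 and 0.17. All 3 had intervals that hold 0. Of 6 neutrophil markers 4 were higher and 2 lower, with summed levels of 1957 and 1844 normalized counts, and their part was not tested.

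Of the membrane-bound chemokines, CX3CL1, which endothelium displays to capture monocytes and cytotoxic cells, had 15.1 normalized counts (SD 5.04) in irradiated and 24.2 (SD 6.53) in non-irradiated nodes (log2 ratio -0.68 ± 0.23 SE, 95% interval -1.17 to -0.19, adjusted p = 0.104). Its receptor CX3CR1 was at 46.2 and 51.4 normalized counts, a log2 ratio of -0.15. All 5 endothelial genes measured were lower in irradiated nodes, beside 428 of the 780 panel genes, with a median log2 ratio of -0.68. At an unadjusted p under 0.05 (limma) there were 4 of the 5 (80%, beside 21.9% of the panel). After adjustment 1 passed (20%, beside 3.59% of the panel). The summed levels of all 5, 2382 and 3032 normalized counts, came mostly from PECAM1 (1352 and 1596, log2 ratio -0.24). The vascular cadherin CDH5 was lower by 1.14 on the log2 scale (adjusted p = 0.00209, limma), and the part of endothelium in the CX3CL1 values was not tested. CXCL16, a transmembrane chemokine of macrophages and dendritic cells, had 824 normalized counts with an SD of 25.4 in irradiated nodes and 948 with an SD of 181 in non-irradiated nodes. Its receptor CXCR6, found on tissue-resident T cells, was at 185 and 209 normalized counts, and the log2 ratios of the pair were -0.20 and -0.18. XCR1, the marker receptor of cross-presenting dendritic cells, had 85.9 normalized counts (SD 16.3) in irradiated and 108 (SD 12.6) in non-irradiated nodes, a log2 ratio of -0.32 ± 0.16 (SE; 95% interval -0.66 to 0.01; adjusted p = 0.241). Of 10 dendritic cell markers listed 6 were measured, the homeostatic receptor CCR7 among them, with summed levels of 2866 and 3734 normalized counts. All 6 were lower in irradiated nodes, beside 428 of the 780 panel genes, and 0 passed the limma threshold. At an unadjusted p under 0.05 (limma) there was 1 (16.7%, beside 21.9% of the panel). The part of dendritic cells was not tested.

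The skin chemokine CCL27 and the mucosal chemokine CCL28 share the receptor CCR10, and all 3 were at 21.6 normalized counts or less. CCL27 was at 16.7 (SD 2.21) in irradiated and 12.04 (SD 4.60) in non-irradiated nodes (log2 ratio 0.47, 95% interval 0.01 to 0.94, adjusted p = 0.220). CCL28 was at 17.9 and 19.8 and CCR10 at 21.6 and 18.5 normalized counts. Of the 39 members, 6 averaged under 20 normalized counts over both groups, CX3CL1 among them, and their ratios rest on low signal.

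**Figure D3:**
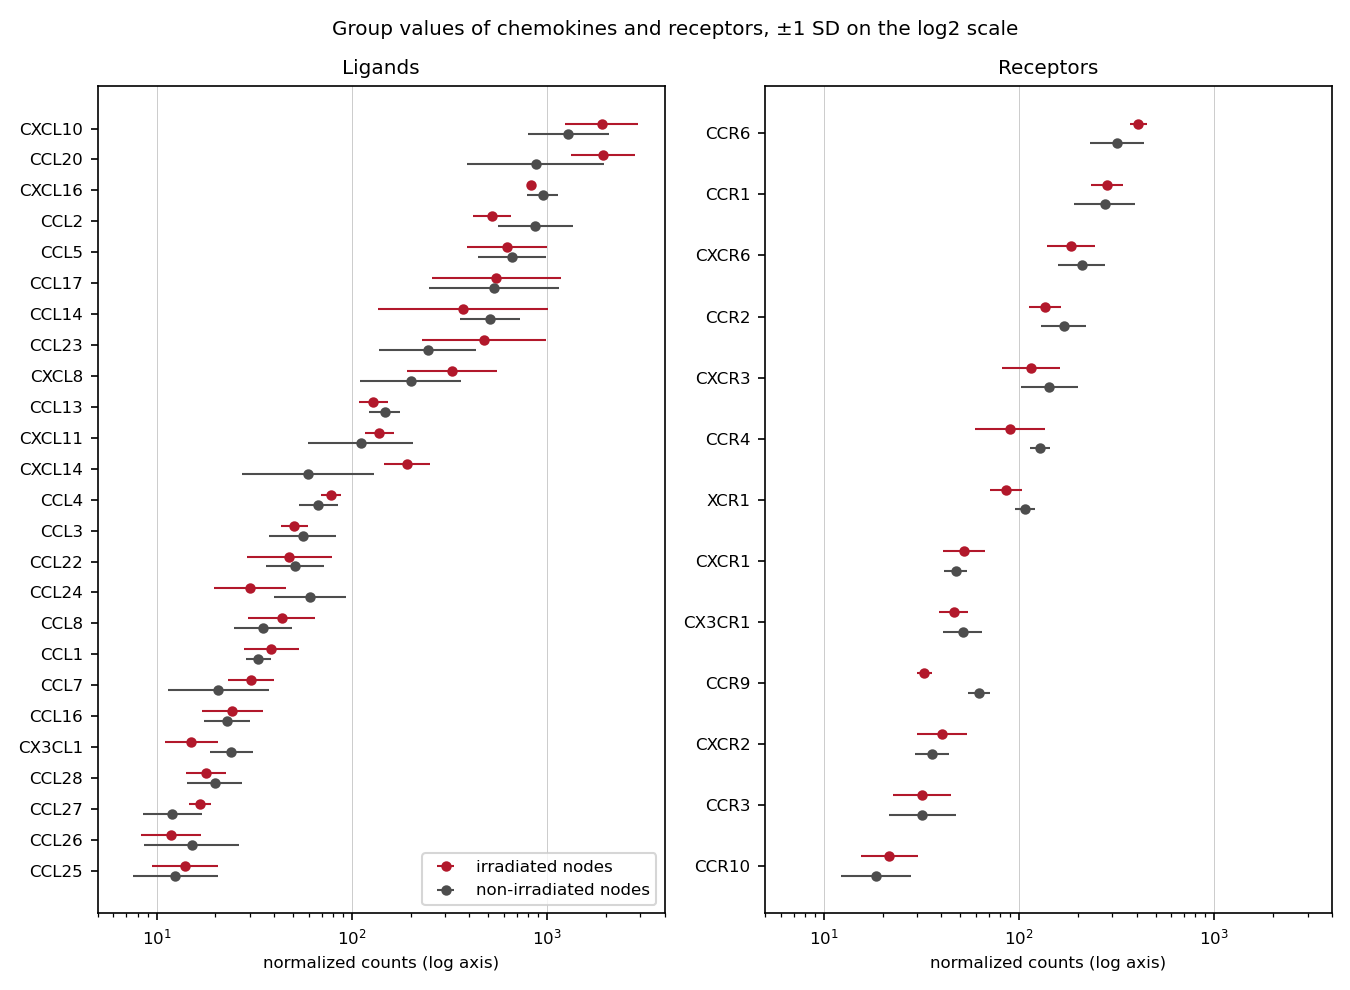
Group values of the ligands (left) and receptors (right) in normalized counts on a log axis, each with its irradiated value above its non-irradiated value; bars are 1 SD over samples on the log2 scale, derived from the authors' SD. The bars of CCR9 are short and clear of each other, at 32.7 and 62.2, while those of CCL17 at 549 and 536 coincide.

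The spread between samples also varied among the genes. On the log2 scale the SD was smaller in irradiated nodes for 25 of the 39 members (64.1%), as for 65.4% of the panel. Median SDs were 0.43 in irradiated and 0.50 in non-irradiated nodes for the members, and 0.32 and 0.43 for the panel. The ligands varied more than the receptors, with medians of 0.51 and 0.58 for ligands and 0.38 and 0.39 for receptors. All 5 CXC ligands among the members had the smaller SD in irradiated nodes, led by CXCL14 (0.39 and 1.12) and CXCL11 (0.25 and 0.89). CCL20 (0.55 and 1.16) and CCL7 (0.39 and 0.86) showed the same order. CCL14 (1.44 and 0.51) and CCR4 (0.60 and 0.17) showed the opposite one. The lowest member SD was that of CXCL16 in irradiated nodes, at 0.04. The limits set by mean and SD showed that the groups must overlap for 12 members, beside 40.9% of the panel, and left 26 undecided. No test of the spread was made, since 2 samples of a dog can share theirs.

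**Figure D4:**
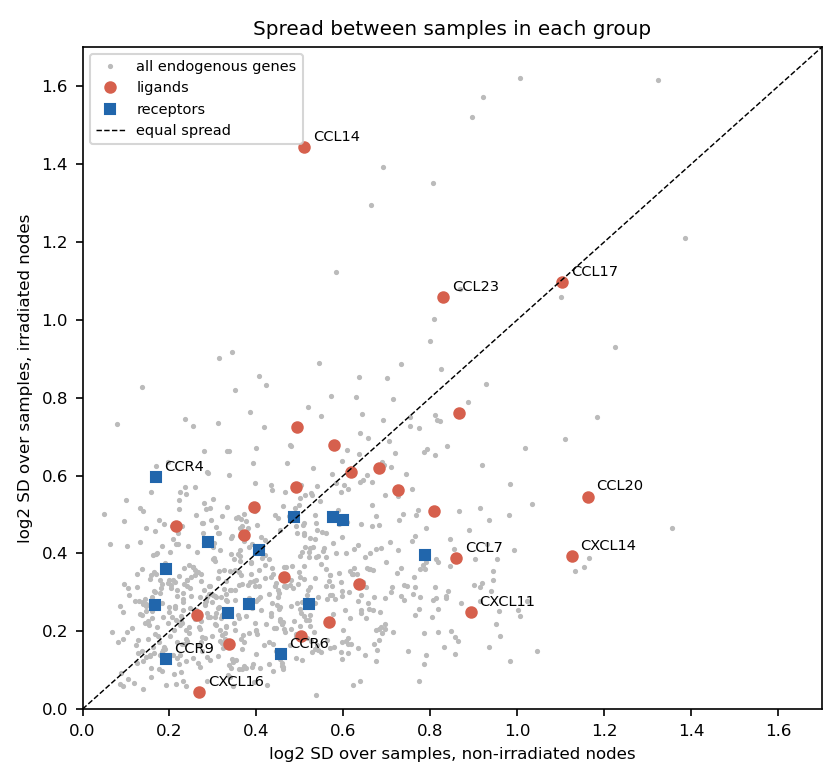
SD over samples on the log2 scale in irradiated nodes (vertical) against non-irradiated nodes (horizontal) for all 780 endogenous genes, with ligands as circles and receptors as squares; the dashed line is equal spread. CCL14 lies far above the line (1.44 and 0.51), CXCL14 and CCL20 far below it, and CCL17 on it.

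Many chemokine genes arose by local duplication and lie side by side in the genome. By the gene order of the RefSeq annotation (assembly UU_Cfam_GSD_1.0), 27 of the 39 members fell into 7 clusters with at most 3 other genes between neighbors. The largest included the receptors CCR2, CCR3, CCR1, XCR1, CXCR6 and CCR9 in this order. The log2 ratios of these ran from -0.93 for CCR9 at the end of the cluster to 0.03 for CCR1, and CXCR6, next to CCR9, was at -0.18. A cluster of 6 ligands (CCL4, CCL3, CCL23, CCL14, CCL16 and CCL5) had 3 higher and 3 lower, from -0.45 to 0.95. That of CCL1, CCL13, CCL8, CCL7 and CCL2 had 3 higher and 2 lower, from -0.73 to 0.56, and cross-hybridization of probes between these close relatives was not tested. CCL17, CX3CL1 and CCL22 formed a further cluster, where CX3CL1 was at -0.68 and the genes on either side at 0.04 and -0.09. The pairs CXCL11 and CXCL10, CXCR2 and CXCR1, and CCL26 and CCL24 each had both members on the same side of 0.

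None of the other genes of chemokine control and signaling passed the test. Of 10 measured, 2 were higher and 8 lower, beside 45.1% of the panel higher, with a median log2 ratio of -0.16 that was not tested; 0 passed the limma comparison and 0 had an unadjusted p under 0.05. The highest ratio among them was that of the atypical receptor CCRL2, at 0.21 (142 and 123 normalized counts). Of the 7 homeostatic chemokine genes 3 were higher and 4 lower. CXCL12 alone passed (14.3%, beside 3.59% of the panel), at -1.34 ± 0.14 (SE, adjusted p = 7.57e-05, limma).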

How the data were processed

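Lymph node RNA was counted on the nCounter FLEX system with the Canine IO 360 panel, and the counts were processed by the authors in nSolver, whose version and background setting the sources used here do not name. The deposited signal is 1 normalized count and 1 SD per group for each of 800 probes, 20 of them housekeeping. Deposited fold changes, limits and p-values are the authors' own comparison and were not used. Log2 ratios of the housekeeping genes averaged -2.62e-05, as scaling to these genes gives when the group values are geometric means. Log2 variances were solved from mean and SD for a log-normal distribution, pooled (10 degrees of freedom) and moderated with limma 3.58.1 (squeezeVar, R 4.3.3; 14.1 degrees of freedom), two-sided, with Benjamini-Hochberg adjustment over 780 genes. This approximates a fit to single samples. Simulated log-normal data served to check the bias of the log2 ratios and that the limits on sample values held. Error rates, the share of true changes called and interval coverage were also computed in these simulations and are not reported here. Both groups had the same SD there, so unequal spreads such as that of CXCL14 were not covered. The table's columns LN and NO LN were read as irradiated and non-irradiated nodes from its title. Members were named except 1 receptor, which stands in the counts and is not reported by itself here. Other genes were named from fixed lists, where they passed or were extreme, and a few markers were chosen after their values were seen. Members and lists were chosen with earlier results of these data known. Of the 39 members 26 matched RefSeq by accession and all 39 by symbol.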

Additional observations from a re-analysis of the deposited data

How the results depend on the processing

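Against 28 genes and 2 members past the threshold, the extreme assumption that both samples of each dog were identical, with no values per dog behind it, gave 0 genes and 0 members, and 0 and 0 when variances were then moderated anew with limma, an alternative added after the data were seen (35 genes and 3 members at an unadjusted p under 0.05). A separate variance for each group left 1 member, the delta method 16 genes and 1 member, Benjamini-Yekutieli adjustment 7 genes and 1 member, and no adjustment 171 genes and 7 members. The single member left was CCR9 each time, and it passed in 8 of 10 alternatives with adjustment, CXCL14 in 5. A separate variance for each group called 29 genes, of which 17 were among the 28. The trend, the minimum level of 20 and log2(value + 10) each gave 38 genes, centering on the housekeeping median 27 and on the endogenous median 25, each with both members. Only CCR3 changed direction, with a log2 ratio of 0.019 on housekeeping and 0.037 on endogenous centering. Leaving out a dog was not run, since it needs values of single samples. No paired analysis was possible because no dog gave samples to both groups. Depth per sample is unknown, so the counting error of low genes such as CCL25 cannot be given apart from the spread between samples.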
